A study of Rattus norvegicus with 20 samples.

Results

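Microtubules of the globular bushy cell were examined through 10 genes: the beta-tubulins Tubb2a, Tubb2b, Tubb3 and Tubb4a, the alpha-tubulins Tuba1a and Tuba4a, and the microtubule-associated proteins Map1a, Map1b, Map2 and Mapt, which encodes tau. The members are the probe sets whose platform annotation names exactly 1 of these genes, 17 of the 31099 probe sets on the array. Of the 10 genes 9 had a probe set of their own, among 14218 genes that did. Tuba1a had none, since its 1 probe set is annotated to 3 genes, Tuba1a, Tuba1b and Tuba1c, and its level is not reported. Of the 9 genes 4 (Tubb2a, Tubb2b, Tuba4a, Map1a) had 1 probe set, Tubb3 and Map2 had 2, and Tubb4a, Map1b and Mapt had 3.

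Globular bushy cells lie in the ventral cochlear nucleus, and each sends an axon across the midline to the medial nucleus of the trapezoid body, where it ends as the calyx of Held, a giant glutamatergic terminal. The study profiled these cells in Sprague Dawley rats at postnatal day 3 (P3, when the calyx forms, 6 animals), day 8 (P8, a juvenile synapse, 9 animals) and day 21 (P21, a mature synapse, 5 animals), 1 array per animal. All animals, at every age, had fluorescent cholera toxin B injected into the target nucleus 24 hours before death, and 200 labelled cells per animal were cut from 12 µm sections by laser microdissection. No genotype or drug differed between the ages, and the series has no untraced control. The RNA of each animal went through 2 rounds of linear amplification before hybridisation to a rat expression array.

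A microtubule is a hollow polymer of alpha- and beta-tubulin dimers, and each subunit is encoded by several genes whose products, the isotypes, differ mainly in their C-terminal tails. Neurons change their isotypes and their associated proteins as the axon stops growing: in rodent brain Tubb2b, Tubb3, Map1b and short isoforms of tau are typical of growing neurites, while Tubb4a, Tuba4a, Map1a and longer tau isoforms are typical of adult tissue. Map2 is the main such protein of dendrites and tau of axons. Tubb4a is also prominent in oligodendrocytes, the myelin-forming glia.

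Levels are log2(intensity + 1), and a difference is that of 2 group means on this scale, with its standard error (SE). Since 1 is added before the logarithm, differences of dim probe sets are understated. A probe set was called where the adjusted p of limma's moderated test, Benjamini-Hochberg over 15647 probe sets, was under 0.05. Where a gene had several probe sets, the one with the highest mean leads. Probe sets differ in how brightly they report a transcript, so levels are compared between ages and never between genes.

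P8 replicates 5 to 9 differed from every other array and are shown separately. Median intensities ran from 58.9 to 67.5 on these 5 and from 23.8 to 32.5 on the remaining 15, and their bacterial spike-in controls averaged log2 12.28 to 13.24, against 7.78 to 8.62. Across probe sets they correlated at 0.613 to 0.713 with P8 replicates 1 to 4, which correlated with each other at 0.903 to 0.953. Below, P8 means replicates 1 to 4 unless the others are named. Of 10 bushy cell markers 8 were measured, and the mean of each lay above log2 4 at every age; their summed intensity was 3032 to 3346 at P3, 4921 to 7963 at P8 and 9759 to 14213 at P21. Of 12 oligodendrocyte markers 11 were measured, none was at 0 at any age, and their sum was 819.6 to 2185 at P3, 5719 to 8896 at P8 and 7278 to 10829 at P21. The astrocyte sum was 3212 to 7629 at P3, 2651 to 4475 at P8 and 3375 to 4369 at P21. The oligodendrocyte precursor sum (5 of 6 markers measured, none at 0) was 1368 to 1894 at P3, 873.3 to 1135 at P8 and 403.2 to 792.1 at P21, and that of inhibitory neurons (4 of 4, none at 0) was 753.6 to 1358, 417 to 942.7 and 292.5 to 784.3 at the same ages. The GAPDH 3' minus 5' difference, a measure of how truncated the amplified RNA is, was 2.52 to 3.20 at P3, 2.91 to 3.86 at P8 and 3.30 to 4.71 at P21. The same difference for beta-actin did not rise with age. It was 4.30 to 5.03 at P3 (median 4.74), 4.07 to 4.46 at P8 and 3.84 to 5.51 at P21 (median 4.05), and it was not used as a covariate. The labels name no litter or date, so p-values measure the spread between these arrays.

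**Figure D1:**
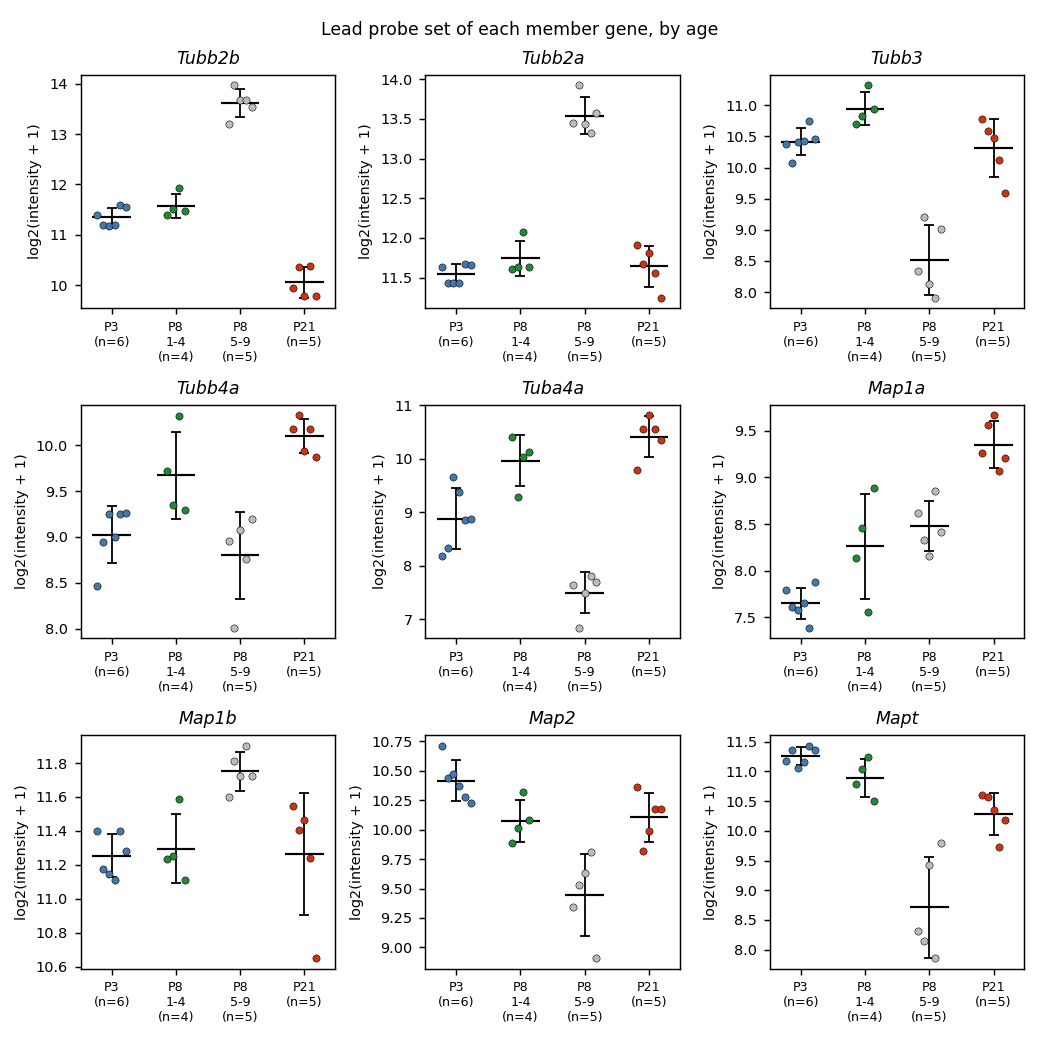
Level of the lead probe set of each of the 9 measured genes, as log2(intensity + 1) on the vertical axis, by age and, at P8, by array set; points are arrays, the long line is the mean and the bars are 1 SD. Among the 15 arrays without P8 replicates 5 to 9, Tubb2b lies lowest in all P21 arrays. Mapt at P21 lies below P3 but overlaps P8. Tubb4a, Tuba4a and Map1a lie high at P21, and Tubb2a and Map1b overlap between the ages of these 15 arrays. The grey arrays (P8 replicates 5 to 9) leave the range of the others in several panels.

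Between P3 and P21 the tubulin and microtubule-associated transcripts moved in both directions. Of the 17 probe sets 6 were called higher and 5 lower at P21, while over the array 20.1% of the 15647 tested probe sets were called higher and 19.0% lower, 39.1% together. The calls higher at P21 belong to Tubb4a (3 of 3 probe sets), Tuba4a, Map1a and the dim probe set of Tubb3, and those lower to Tubb2b, Mapt (3 of 3) and 1 of the 3 of Map1b. Tubb2a, both probe sets of Map2 and the lead probe sets of Tubb3 and Map1b did not pass the test. In all 11 called probe sets the P21 and P3 arrays did not overlap, and over the array 28.7% of probe sets did not overlap between these ages, 15.1% higher and 13.6% lower at P21. All 17 passed the filter on low values. In RNA pooled from many cells, fewer cells of a type and less RNA per cell cannot be told apart.

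The oligodendrocyte marker mean moved with age, all 11 measured markers being called higher at P21 against P3 with a median log2 difference of 3.24. With it as a covariate limma called 0 of the 17 member probe sets for P21 against P3 (6 at an unadjusted p under 0.05), and the marker sums of these ages do not overlap, so the marker level and age cannot be told apart there. All 11 probe sets called without the covariate kept their direction with it. The difference of Map1a was 2.07 ± 0.79 and that of Tubb2b -1.38 ± 0.63, while those of the Map1b probe set 1371003_at (-0.75 ± 1.22) and of the Tubb4a probe set 1393635_x_at (0.85 ± 0.78) were smaller than without it (limma adjusted p = 0.232, 0.319, 0.821 and 0.658). For P21 against P8, where the marker sums overlap, Tubb2b (-1.54 ± 0.25), Map1a (1.19 ± 0.31) and Mapt 1368138_at (-1.20 ± 0.26) were called with the covariate (limma adjusted p = 0.00194, 0.0236 and 0.00901). With all 20 arrays 4 of the 17 were called at P21 against P3, against 11 over 15 arrays, and the calls of Tubb2b, Tuba4a, Mapt 1368137_at and 1368138_at, Map1b 1371003_at, Tubb3 1369901_at and Tubb4a 1384927_at were lost. The added arrays are all P8, so the P21 minus P3 differences were the same in both fits. What changed was their SE, which rests on the spread shared by all ages, and the probe sets tested.

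Other measures moved with the probe sets that were lower at P21. Oligodendrocyte precursor markers were called lower at P21 against P3 in 3 of 4 tested and higher in 1 (median log2 difference -1.71), with no overlap of their sums, and inhibitory neuron markers lower in 2 of 2 tested (median -0.98), with overlapping sums. Their part in the results for Tubb2b, Mapt and Map1b was not tested. With the GAPDH 3' minus 5' difference as a covariate 8 of the 17 were called at P21 against P3. The GAPDH differences of P3 (at most 3.20) and P21 (at least 3.30) do not overlap. This covariate and age thus cannot be told apart there. The 3 calls lost were those of the Tubb4a lead 1393635_x_at (0.70 ± 0.28, limma adjusted p = 0.0858), Map1b 1371003_at (-0.50 ± 0.46, limma adjusted p = 0.474) and Tubb3 1369901_at (0.68 ± 0.26, limma adjusted p = 0.0726).

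**Figure D2:**
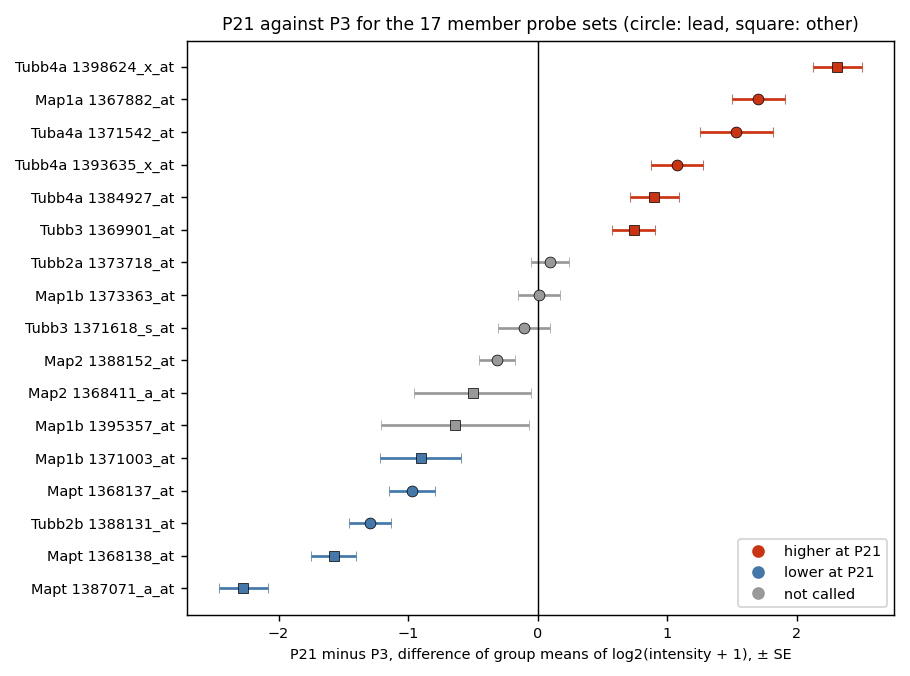
P21 minus P3 difference of group means on the log2(intensity + 1) scale for the 17 probe sets, with SE; circles are lead probe sets, squares the others, red and blue mark calls. The called probe sets run from -2.27 (Mapt) to 2.31 (Tubb4a), and 6 grey symbols lie between them.

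Tubb2b, a beta-tubulin of migrating and axon-extending neurons whose human counterpart is mutated in cortical malformations, was the 1 tubulin among the members called lower at P21. Its level was 11.18 to 11.58 in the 6 P3 arrays (median 11.30), 11.39, 11.52, 11.92 and 11.47 in the P8 arrays, and 9.94, 10.37, 9.79, 10.39 and 9.80 in the P21 arrays. Every P21 array lay below every P3 and P8 array, and the P8 and P3 arrays overlapped. Tubb2b fell by 1.30 ± 0.16 at P21 against P3 (limma adjusted p = 1.86e-05, 2.45-fold) and by 1.52 ± 0.18 at P21 against P8 (limma adjusted p = 7.75e-05). P8 minus P3 was 0.22 ± 0.17 (limma adjusted p = 0.402).

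Tubb2a is the closest relative of Tubb2b, and the genes are near neighbours on chromosome 17, with 1 annotated gene, Tubb2al1, between them. Its level was 11.43 to 11.67 at P3 (median 11.53), 11.61, 11.64, 12.08 and 11.64 at P8, and 11.91, 11.68, 11.81, 11.55 and 11.25 at P21. The 3 ages overlapped. The difference of P21 minus P3 was 0.10 ± 0.15 (limma adjusted p = 0.628), with a 95% interval of -0.21 to 0.41. P8 minus P3 was 0.20 ± 0.16 and P21 minus P8 -0.10 ± 0.16 (limma adjusted p = 0.410 and 0.716).

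The pair was then compared within each array, as Tubb2b minus Tubb2a, which removes whatever scales a whole array; only its change between ages has a meaning. The difference averaged -1.58 ± 0.39 at P21 and -0.19 ± 0.07 at P3 (SD, n = 5 and 6), a change of -1.39 (exact permutation test over 462 regroupings, two-sided p = 0.00433, the smallest it can give, 0.0195 adjusted over 9 such tests). Against P8, where it averaged -0.16 ± 0.05 (SD, n = 4), the P21 change was -1.42 (exact permutation p = 0.0159, the smallest it can give, 0.0390 adjusted). All 5 P21 arrays, at -1.98, -1.31, -2.02, -1.17 and -1.45, lay below the lowest of the other ages. Between P8 and P3 the change was 0.03 (exact permutation p = 0.524, 0.589 adjusted). These pairs of genes were chosen with earlier results of the same arrays known.

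The promoters of 9 of the 10 genes were found in the RefSeq table (assembly GRCr8; 250 bases before and 50 after the annotated start). Those of Tubb2b and Tubb2a are shown because these neighbours parted at P21, and those of Tuba4a and Tubb4a because these tubulins were called higher at P21 on their lead probe sets. Capitals mark 2 motifs on either strand, so that a match on the opposite strand appears as the reverse complement, and they also mark matches that overlap. One is TATAA, the core letters of the TATA box. The other is TGACG, the core letters of the cyclic AMP response element.
Tubb2b promoter, chr17:30952836-30953135, plus strand: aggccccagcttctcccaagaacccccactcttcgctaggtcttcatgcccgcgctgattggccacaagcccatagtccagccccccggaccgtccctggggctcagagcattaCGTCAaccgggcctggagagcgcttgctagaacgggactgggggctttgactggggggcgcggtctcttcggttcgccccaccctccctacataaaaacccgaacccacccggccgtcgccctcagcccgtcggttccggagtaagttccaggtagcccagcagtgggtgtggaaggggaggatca
Tubb2a promoter, chr17:31001936-31002235, plus strand: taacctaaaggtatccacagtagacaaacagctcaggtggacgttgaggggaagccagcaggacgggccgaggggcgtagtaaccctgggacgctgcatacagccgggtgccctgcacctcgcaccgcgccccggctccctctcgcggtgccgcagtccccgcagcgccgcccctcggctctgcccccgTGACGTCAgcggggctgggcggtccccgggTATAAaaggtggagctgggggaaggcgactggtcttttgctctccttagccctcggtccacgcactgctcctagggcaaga
Tuba4a promoter, chr9:84162535-84162834, minus strand: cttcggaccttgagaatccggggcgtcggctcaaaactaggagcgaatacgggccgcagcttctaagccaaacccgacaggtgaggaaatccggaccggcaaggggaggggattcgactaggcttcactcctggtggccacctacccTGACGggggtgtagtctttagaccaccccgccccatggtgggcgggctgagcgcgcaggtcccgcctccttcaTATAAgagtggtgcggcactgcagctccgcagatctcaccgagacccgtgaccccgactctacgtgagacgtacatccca
Tubb4a promoter, chr9:2012232-2012531, minus strand: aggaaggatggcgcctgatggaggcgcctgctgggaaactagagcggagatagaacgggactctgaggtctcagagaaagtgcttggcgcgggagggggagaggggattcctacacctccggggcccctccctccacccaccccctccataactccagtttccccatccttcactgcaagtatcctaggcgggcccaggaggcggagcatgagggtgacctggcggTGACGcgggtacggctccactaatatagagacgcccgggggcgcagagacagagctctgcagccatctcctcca

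Counting the annotated start as 0, Tubb2a had TATAA at -31 to -27 and Tuba4a at -30 to -26, while the windows of Tubb2b and Tubb4a hold no match. Counted on both strands, TATAA occurred in 5 of the 9 member promoters (Tubb2a, Tubb3, Tuba1a, Tuba4a, Map1b) and in 26.2% of 33469 promoters of the same length. TGACG occurred in 5 of 9 (Tubb2a, Tubb2b, Tubb4a, Tuba4a, Map1a), against 21.2% of all. The full palindrome TGACGTCA stood in Tubb2a alone among the 9, at -61 to -54, and in 1.83% of all promoters. GGGCGG, the letters of a GC box, occurred in 5 of 9 (33.1% of all) and CCAAT in 4 of 9 (37.5% of all), both strands counted. The median share of the letters G and C was 63.0% in the 9 promoters and 51.7% in all, and no motif share was tested. Of the 4 promoters shown, all held TGACG, and those of Tubb2b, which fell, and Tubb4a, which rose, both lacked TATAA.

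Tubb4a encodes the beta-tubulin typical of adult brain, and rose on all 3 of its probe sets, of which the lead and 1384927_at were designed on the same expressed sequence. The lead probe set, 1393635_x_at, stood at 8.46 to 9.26 at P3 (median 9.12), at 9.72, 9.35, 10.33 and 9.30 at P8, and at 10.18, 10.33, 9.94, 10.18 and 9.88 at P21. All P8 and all P21 arrays lay above the highest P3 array, and the P21 and P8 arrays overlapped. P21 minus P3 was 1.07 ± 0.20 (limma adjusted p = 6.54e-04) and P8 minus P3 0.65 ± 0.21 (limma adjusted p = 0.0533), which did not pass. Some alternative fits called the P8 minus P3 difference, among them quantile normalization, a filter at log2 6 and 1 probe set per gene, and others did not.

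Probe set 1398624_x_at of Tubb4a gave the largest rise of the 17: 2.31 ± 0.19 at P21 against P3 (limma adjusted p = 4.33e-07, 4.97-fold). It stood at 6.52 to 7.50 at P3 (median 7.29), at 8.14, 8.94, 8.46 and 8.91 at P8, and at 9.33, 9.60, 9.65, 9.51 and 9.39 at P21, with no overlap between any of the ages. P8 minus P3 was 1.43 ± 0.20 (limma adjusted p = 5.25e-04) and P21 minus P8 0.88 ± 0.21 (limma adjusted p = 0.0105). P8 replicates 5 to 9, at 6.77 to 7.69, lay below these P8 arrays and overlapped P3. With all 20 arrays P8 minus P3 was 0.64 ± 0.32 (limma adjusted p = 0.132), and the call was lost. The third, 1384927_at, was also called at P21 against P3 (0.90 ± 0.19, limma adjusted p = 0.00145) and at P21 against P8 (0.74 ± 0.21, limma adjusted p = 0.0230), while its P8 minus P3 difference was 0.16 ± 0.20 (limma adjusted p = 0.628). The suffix of the first 2 marks probes that can also match other transcripts. With the oligodendrocyte marker mean as a covariate, P21 minus P8 was 0.82 ± 0.29 on 1398624_x_at and 0.80 ± 0.29 on 1384927_at, and neither was called (limma adjusted p = 0.0851 and 0.0857). The P21 against P8 call of 1384927_at was also lost with all 20 arrays (0.76 ± 0.35, limma adjusted p = 0.113) and with the GAPDH covariate. It was lost in 2 of the 15 fits without 1 array as well.

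Tuba4a encodes the alpha-tubulin that, unlike most, is made without the C-terminal tyrosine. It stood at 8.19 to 9.66 at P3 (median 8.87), at 10.41, 9.29, 10.04 and 10.12 at P8, and at 9.80, 10.56, 10.82, 10.56 and 10.36 at P21. All P21 arrays lay above all P3 arrays, and P8 overlapped both. Tuba4a rose by 1.53 ± 0.28 at P21 against P3 (limma adjusted p = 5.73e-04, 2.89-fold) and by 1.08 ± 0.30 at P8 against P3 (limma adjusted p = 0.0248). The P8 call was lost in 4 of the 15 fits that left out 1 array, where the highest limma adjusted p was 0.0680, without P8 replicate 1. It was also lost with the GAPDH or the oligodendrocyte covariate (limma adjusted p = 0.0533 and 0.692), and with all 20 arrays the difference turned to -0.29 ± 0.50 (limma adjusted p = 0.672). With the oligodendrocyte covariate the difference was 1.44 ± 0.83. The oligodendrocyte sums of P8 and P3 do not overlap, so marker level and age cannot be told apart there. P21 minus P8 was 0.45 ± 0.31 (limma adjusted p = 0.352).

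Tubb3, the neuron-specific beta-tubulin, was measured by a bright and a dim probe set that did not give the same result. The bright one, 1371618_s_at, whose suffix also marks matches to other transcripts, stood at 10.07 to 10.75 at P3 (median 10.42), at 10.70, 10.83, 11.32 and 10.93 at P8, and at 10.78, 10.59, 10.47, 10.13 and 9.59 at P21. The P21 arrays spanned the whole P3 range and beyond it, and P21 minus P3 was -0.11 ± 0.20 (limma adjusted p = 0.714; 95% interval -0.54 to 0.33). The P8 mean was the highest of the 3 ages, but neither P8 minus P3 (0.53 ± 0.22, limma adjusted p = 0.110) nor P21 minus P8 (-0.64 ± 0.23, limma adjusted p = 0.0659) passed. Some alternative fits called P21 minus P8, among them quantile normalization and a filter at log2 6, and others did not. The dim one, 1369901_at, lay at 3.41 to 4.01 at P3, 3.83 to 4.56 at P8 and 4.29 to 4.69 at P21, close to the low-value limit of log2 4. It was called higher at P21 against P3 (0.74 ± 0.17, limma adjusted p = 0.00279) and at P8 against P3 (0.57 ± 0.18, limma adjusted p = 0.0447), the second call being lost in 11 of the 15 fits without 1 array. This probe set passed the low-value filter only with the P21 arrays, the age with the highest of its 3 means. Its entry into the tests therefore depended on the P21 arrays. With no filter on low values the P21 against P3 call was kept, and the P8 against P3 call was lost (limma adjusted p = 0.0629).

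Among the associated proteins, Map1a, which binds microtubules of mature neurons, rose. Its level was 7.39 to 7.88 at P3 (median 7.63), 8.13, 8.46, 7.56 and 8.89 at P8, and 9.26, 9.56, 9.67, 9.07 and 9.21 at P21. Every P21 array lay above every P3 and P8 array, while P8 replicate 3 lay within the P3 range. The difference of P21 minus P3, 1.70 ± 0.20, equals a 3.26-fold rise (limma adjusted p = 1.28e-05), and Map1a also rose by 1.09 ± 0.23 at P21 against P8 (limma adjusted p = 0.00415). P8 minus P3 was 0.61 ± 0.22 (limma adjusted p = 0.0691), and some alternative fits called it, among them centring on medians and array weights, while others did not.

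Map1b, the relative of Map1a in growing axons, was bright on its lead probe set, which passed in no comparison. That probe set, 1373363_at, stood at 11.11 to 11.40 at P3 (median 11.23), at 11.23, 11.25, 11.59 and 11.11 at P8, and at 11.55, 11.41, 11.47, 11.24 and 10.65 at P21. The ages overlapped, and P21 minus P3 was 0.01 ± 0.16 (limma adjusted p = 0.969; 95% interval -0.34 to 0.36). P8 minus P3 was 0.04 ± 0.17 and P21 minus P8 -0.03 ± 0.18 (limma adjusted p = 0.897 and 0.926).

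Of the 2 dimmer probe sets of Map1b 1 was called, at P21 against P3. Probe set 1371003_at stood at 7.08 to 8.42 at P3 (median 7.32), at 7.21, 6.99, 5.40 and 6.42 at P8, and at 6.62, 6.92, 6.09, 6.48 and 6.98 at P21. It fell by 0.90 ± 0.31 at P21 against P3 (limma adjusted p = 0.0326), a call lost in 5 of the 15 fits without 1 array, where the highest limma adjusted p was 0.0859, without P21 replicate 3. P8 minus P3 was -1.01 ± 0.33 (limma adjusted p = 0.0523), and some alternative fits called it, among them centring on medians and the replicate block, while others did not. Probe set 1395357_at, at 3.98 to 6.00 at P3, 1.32 to 5.36 at P8 and 3.90 to 4.43 at P21, passed in no comparison, with P21 minus P3 at -0.64 ± 0.57 and P8 minus P3 at -0.76 ± 0.61 (limma adjusted p = 0.407 and 0.427).

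Set against each other within each array, Map1a minus Map1b (lead probe sets) averaged -1.91 ± 0.33 at P21 and -3.60 ± 0.21 at P3 (SD, n = 5 and 6), a change of 1.69 with no overlap between the ages (exact permutation p = 0.00433, the smallest the design allows, 0.0195 adjusted over the 9 tests). At P8 the mean was -3.03 ± 0.75 (SD, n = 4). P21 minus P8 was 1.12 (exact permutation p = 0.0317, 0.0476 adjusted) and P8 minus P3 0.57 (exact permutation p = 0.133, 0.171 adjusted). The P8 arrays were the most spread, with values of -3.10, -2.79, -4.02 and -2.22. Without P8 replicate 4 the P8 minus P3 change was smallest, at 0.30, and without P8 replicate 3 largest, at 0.90.

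**Figure D3:**
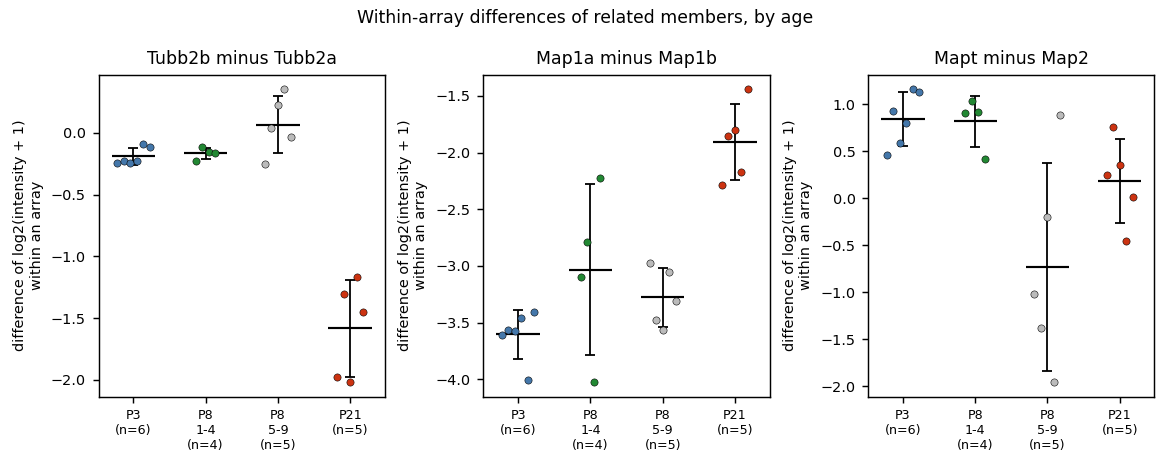
Differences between related genes within each array, on the log2(intensity + 1) scale, by age and array set; points are arrays, the long line is the mean and the bars are 1 SD. Tubb2b minus Tubb2a drops at P21, Map1a minus Map1b is highest at P21, and Mapt minus Map2 overlaps between the ages.

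Mapt, the gene of the axonal protein tau, was lower at P21 on all 3 of its probe sets. The lead, 1368137_at, stood at 11.06 to 11.43 at P3 (median 11.26), at 10.79, 11.04, 11.23 and 10.50 at P8, and at 10.61, 10.57, 10.35, 9.72 and 10.19 at P21. All P21 arrays lay below all P3 arrays, and the P8 arrays overlapped both. It fell by 0.97 ± 0.18 at P21 against P3 (limma adjusted p = 5.42e-04). The fall of 0.61 ± 0.20 at P21 against P8 was called (limma adjusted p = 0.0467) but lost in 12 of the 15 fits without 1 array. With all 20 arrays its sign turned (0.61 ± 0.49, limma adjusted p = 0.354).

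The other probe sets of Mapt changed by more, and over different intervals. Probe set 1368138_at stood at 10.35 to 10.62 at P3 (median 10.44), at 9.97, 10.41, 9.89 and 9.44 at P8, and at 9.20, 8.98, 8.97, 8.45 and 8.78 at P21. It fell by 1.58 ± 0.17 at P21 against P3 (limma adjusted p = 5.33e-06) and by 1.05 ± 0.19 at P21 against P8 (limma adjusted p = 0.00171), while P8 minus P3 was -0.52 ± 0.18 (limma adjusted p = 0.0661). Some alternative fits called P8 minus P3, among them quantile normalization and array weights, and others did not. With all 20 arrays the sign of the P21 minus P8 difference of 1368138_at turned, to a rise of 0.78 ± 0.74 (limma adjusted p = 0.432). Probe set 1387071_a_at, whose suffix marks probes shared by several transcripts of the gene, stood at 9.68 to 10.25 at P3 (median 9.92), at 8.35, 8.36, 7.85 and 7.82 at P8, and at 7.90, 7.50, 7.80, 7.05 and 7.98 at P21. Its differences of P8 minus P3, -1.82 ± 0.20 (limma adjusted p = 9.18e-05), and P21 minus P3, -2.27 ± 0.19 (limma adjusted p = 3.98e-07, a 4.83-fold fall), were called, and its P21 minus P8 difference was -0.45 ± 0.21 (limma adjusted p = 0.154). The P8 arrays of 1387071_a_at thus lay apart from P3 and overlapped P21, whereas those of the lead overlapped P3; whether the probe sets differ in their change was not tested. Tau transcripts are spliced differently in the young and the adult brain, and the files do not say which exons each probe set covers. With the GAPDH 3' minus 5' difference as a covariate the 3 calls of Mapt at P21 against P3 were kept, and that of 1368137_at at P21 against P8 was lost (limma adjusted p = 0.0782). At P21 against P3 this covariate and age cannot be told apart.

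Map2, the dendritic relative of tau, passed in no comparison. Its lead probe set, 1388152_at, stood at 10.23 to 10.71 at P3 (median 10.40), at 9.89, 10.01, 10.32 and 10.08 at P8, and at 10.36, 9.81, 9.99, 10.17 and 10.18 at P21. P21 minus P3 was -0.31 ± 0.14 (limma adjusted p = 0.0885; 95% interval -0.61 to -0.02) and P8 minus P3 -0.34 ± 0.15 (limma adjusted p = 0.132). Among the alternative fits, trend and robust estimation and array weights called it lower at P21 against P3. All 20 arrays called it lower at P8 against P3 (-0.69 ± 0.22, limma adjusted p = 0.0287). The other alternatives did not call it in these comparisons. The dim probe set, 1368411_a_at, ran from 4.20 to 5.50 at P21, against 4.52 to 7.34 at P3 (difference -0.50 ± 0.45, limma adjusted p = 0.404). Within arrays, Mapt minus Map2 averaged 0.18 ± 0.45 at P21 and 0.84 ± 0.29 at P3 (SD, n = 5 and 6), a change of -0.66 (exact permutation p = 0.0173, 0.0390 adjusted), with overlap. The change from P8 was -0.64 (exact permutation p = 0.0317, 0.0476 adjusted), and P8 minus P3 was -0.02 (exact permutation p = 0.848, adjusted too).

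**Figure D4:**
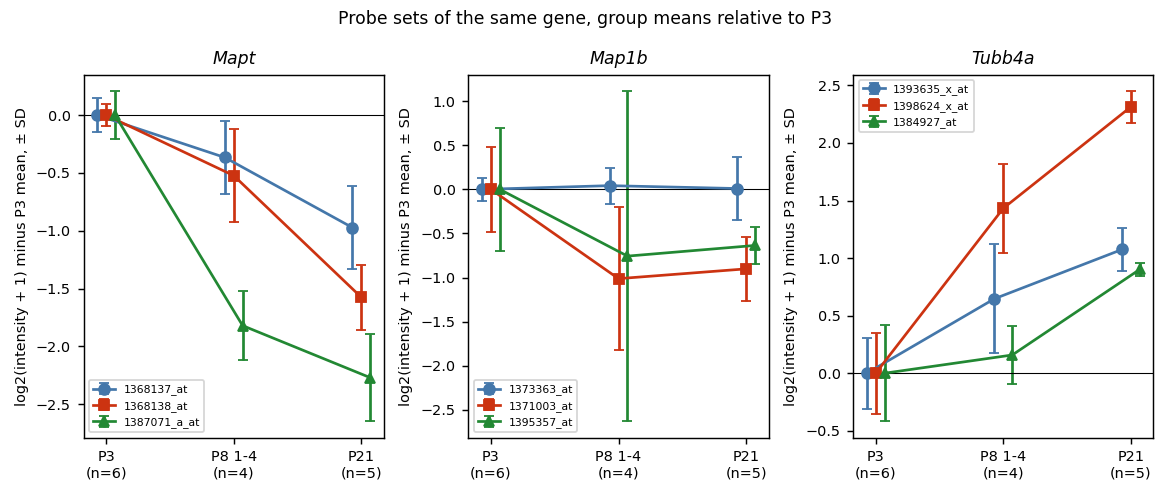
Group means of the 3 probe sets of Mapt, Map1b and Tubb4a at each age, each set to 0 at its own P3 mean, on the log2(intensity + 1) scale with SD bars; P8 is replicates 1 to 4. The probe sets of Mapt all go down and those of Tubb4a all go up but by different amounts, and those of Map1b separate, with 1373363_at staying near 0.

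By interval, P8 against P3 gave 3 of the 17 probe sets called higher (Tubb4a 1398624_x_at, Tuba4a and Tubb3 1369901_at) and 1 lower (Mapt 1387071_a_at), where 7.81% and 7.75% of the tested probe sets were called higher and lower over the array. Of these, Tubb3 1369901_at passed the low-value filter only through its P21 arrays. P21 against P8 gave 3 higher (Map1a and 2 of Tubb4a) and 3 lower (Tubb2b and 2 of Mapt), where 8.31% and 8.42% were called. The groups did not overlap for 2 probe sets higher and 1 lower at P8 against P3 (7.42% and 6.61% over the array, 14.0% together), and for 3 higher and 2 lower at P21 against P8 (7.31% and 6.74%, 14.1% together). The intervals share the P8 arrays, so their results are not independent. The P8 against P3 count rests on single arrays: it was 2 without P3 replicate 2 and 7 without P8 replicate 2.

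P8 replicates 5 to 9 carried the brightest Tubb2b and Tubb2a signals of the series. Tubb2b stood at 13.20, 13.97, 13.67, 13.67 and 13.54 there, against 9.79 to 11.92 on the other 15 arrays, and Tubb2a at 13.45, 13.93, 13.44, 13.32 and 13.57, against 11.25 to 12.08. Map1b (1373363_at) and the dim probe set of Tubb3 also lay wholly above the other arrays, Map1b by a small margin (at least 11.598, against at most 11.585). Tuba4a (6.84 to 7.80 there, against 8.19 to 10.82), the bright Tubb3 probe set (7.91 to 9.20, against 9.59 to 11.32), Mapt 1368138_at and the lead of Map2 lay wholly below. For the lead of Map2 the ranges all but touched (at most 9.8139 there, against at least 9.8144). The 2 probe sets of Tubb3 thus went opposite ways on these arrays. Of the 17 probe sets 4 lay above, 4 below and 9 overlapped, against 15.4% of tested probe sets above and 10.4% below over the array. Their Tubb2b minus Tubb2a differences, -0.25 to 0.35, lay above all P21 values, as those of the other P8 arrays did.

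Other genes that build, fold, modify and travel on microtubules were counted on 1 lead probe set each, P21 against P3, with a median difference over all tested probe sets of 0.02. Over the 11834 lead probe sets tested 21.8% were called higher and 19.8% lower, 41.6% together, so lists such as the folding genes (6 of 18) and the tau kinases and phosphatases (7 of 16) lie near or under that share, and no list was tested against it. Of 14 further tubulin genes 7 were tested, 3 called higher and 3 lower (median 0.50). Tuba8 rose by 2.18 ± 0.30 (limma adjusted p = 4.09e-05), and the beta-tubulins Tubb6 and Tubb5 fell by 2.87 ± 0.51 and 0.69 ± 0.14 (limma adjusted p = 4.34e-04 and 0.00103). Of 20 other structural microtubule-associated proteins and relatives 17 were tested, 6 called higher and 4 lower (median 0.21). Tppp, a tubulin polymerisation promoter abundant in oligodendrocytes, rose by 2.23 ± 0.21 (limma adjusted p = 1.18e-06) and Map7, which recruits kinesin-1, by 1.90 ± 0.22 (limma adjusted p = 8.48e-06), whereas Map6, which protects stable microtubules, fell by 1.29 ± 0.17 (limma adjusted p = 2.55e-05).

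The plus-end tracking proteins, which ride growing microtubule tips, counted 5 lower and 2 higher of 12 tested (median -0.42). Mapre1, the tip protein EB1, fell by 2.11 ± 0.13 (limma adjusted p = 2.93e-08), the neuron navigator Nav1 by 1.57 ± 0.14 (limma adjusted p = 9.27e-07) and Slain2 by 0.87 ± 0.14 (limma adjusted p = 1.40e-04). Of the 18 genes of tubulin folding and dimer assembly 3 were higher and 3 lower (median -0.23): the cofactor Tbcc rose by 1.41 ± 0.12 (limma adjusted p = 7.83e-07), and the chaperonin subunits Cct6a and Tcp1 fell by 0.97 ± 0.15 and 0.66 ± 0.12 (limma adjusted p = 1.60e-04 and 5.12e-04).

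Enzymes that modify tubulin or sever microtubules counted 4 higher and 6 lower of 16 tested (median -0.29). The tubulin polyglutamylases Ttll7 and Ttll5 rose by 2.45 ± 0.21 and 1.21 ± 0.13 (limma adjusted p = 5.63e-07 and 6.10e-06), and Svbp, the partner of the detyrosinating vasohibins, fell by 1.34 ± 0.20 (limma adjusted p = 7.38e-05). Of 16 tested kinases and phosphatases of tau and its relatives 4 were higher and 3 lower (median 0.10): the phosphatase subunit Ppp2r2b and the kinase Mapk8 fell by 0.93 ± 0.15 and 0.75 ± 0.13 (limma adjusted p = 2.25e-04 and 3.54e-04), and Ppp2r5b rose by 0.49 ± 0.12 (limma adjusted p = 0.00476). Of 23 tested axonal motor genes 9 were higher and 4 lower (median 0.28), among them the kinesin light chain Klc2, which rose by 1.75 ± 0.21 (limma adjusted p = 1.12e-05), the kinesin-1 heavy chain Kif5b, by 1.13 ± 0.15 (limma adjusted p = 2.99e-05), and Kif21a, by 1.15 ± 0.17 (limma adjusted p = 8.50e-05).

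**Figure D5:**
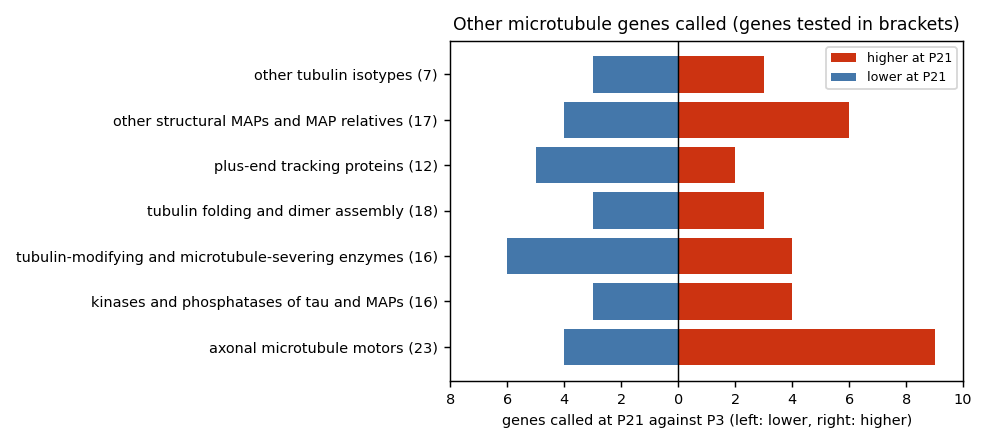
Number of genes called lower (left of 0) and higher (right of 0) at P21 against P3 in 7 lists of other microtubule genes, with the number tested in brackets. Plus-end tracking proteins and modifying enzymes reach farther to the left (5 and 6 genes), and motors to the right (9 genes); over all lead probe sets 19.8% were called lower and 21.8% higher.

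Some genes had profiles close to those of the tubulins over the 15 arrays. The lead probe sets most like Tubb2b, of 11825 searched, were those of Gmfb (Pearson r = 0.98), Shroom2 (0.97) and Nnat (0.96). Nnat stood at a mean of 8.61 at P21, against 11.08 at P3 and 11.18 at P8. Those most like Tuba4a were Ndufb7 (0.96), Lamtor2 (0.94) and Prdx5 (0.94), with Ndufb7 at a mean of 8.18 at P3, 9.09 at P8 and 9.80 at P21. These correlations are descriptions over arrays that share their age groups.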

How the data were processed

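As deposited, the values are intensities on a linear scale, 1 for each probe set of an array; the mean of every array without its lowest and highest 2% is 100, so arrays were scaled as wholes by the authors. The submitters' processing notes name GCRMA without saying for what. Since GCRMA writes log2 values, what made the linear intensities is not stated in the labels or the file.

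Intensities were turned into log2(intensity + 1) with no further normalization. Probe set names come from the platform annotation: 20832 name 1 gene, 436 several, and 9831 are unnamed here. Of the symbols 20764 were updated through the Entrez identifier (GRCr8 gene table, names only) and 68 kept. Non-control probe sets of 1 gene above log2 4 in at least 5 of 15 arrays (15647) were tested with limma 3.58.1 in R 4.3.3 (lmFit, eBayes, 3 ages in 1 fit), checked on simulated data. Exact permutation tests used scipy 1.17.1. The number of arrays limits precision.

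The members, lists, pairs and the separate treatment of P8 replicates 5 to 9 were chosen with earlier results of these data known. Named genes are all members, the 3 with the smallest adjusted p per list at P21 against P3, and the 3 most correlated with Tubb2b and Tuba4a. Alternatives were all 20 arrays, other scalings, filters, pseudocount, features, variance models, array weights, 2 ages only, a replicate block, 2 covariates and each array left out. Sequences are RefSeq promoters; protein sequences were not used here.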

Additional observations from a re-analysis of the deposited data

Results flagged for a closer look

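In 3 of 68 group and probe set combinations 1 array lay far from its group by Dixon's test, and chance gives about 1 in 20. Tubb2a in P8 replicate 3 was at 12.08, with the nearest P8 array at 11.64. The dim probe set 1369901_at of Tubb3 in P8 replicate 2 was at 3.83, with the nearest at 4.46. Probe set 1395357_at of Map1b in P21 replicate 2 was at 4.43, with the nearest at 4.04.

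P8 replicates 5 to 9, which enter the tests between ages only in the alternative with all 20 arrays, had 4 probe sets above all of the 15 other arrays. Their mean was 13.61 for Tubb2b, where the highest other array was at 11.92, and 13.54 for Tubb2a, where it was at 12.08. It was 11.75 for Map1b 1373363_at, against a highest of 11.59, and 5.95 for Tubb3 1369901_at, against 4.69. These arrays also had the higher spike-in levels and medians given in the report, and the part of that in these signals was not tested.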

How the results depend on the processing

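At P21 against P3 the 11 member calls became 4 with all 20 arrays, 5 with 1 probe set per gene (of 9) and 0 with the oligodendrocyte marker mean as a covariate. The calls over all probe sets (6114) became 2184, 5099 and 49 in the same settings, and 3404 with the GAPDH 3' minus 5' difference as a covariate. At P8 against P3 the 4 member calls became 9 with all 20 arrays, 7 with a filter at log2 6, 2 with 1 probe set per gene, 7 with trend and robust estimation, 0 with the oligodendrocyte mean and 2 with the GAPDH difference, and 2 to 7 with 1 array left out. The 2435 calls over all probe sets became 4486 with all 20 arrays, 1306 with a replicate block and 0 with the oligodendrocyte mean (limma; 1252 at an unadjusted p under 0.05, 3 of them members). At P21 against P8 the 6 member calls became 3 with 1 probe set per gene and 3 with the oligodendrocyte mean, and the 2619 over all probe sets became 1406 with only the 2 ages compared. With all 20 arrays 8 of the 51 member differences changed sign, 3 of them called over 15 arrays: Tuba4a at P8 against P3 was -0.29 (limma adjusted p = 0.672), and at P21 against P8 Mapt was 0.61 on 1368137_at (limma adjusted p = 0.354) and 0.78 on 1368138_at (limma adjusted p = 0.432). With the GAPDH difference 7 member calls were lost over the 3 comparisons, 3 of them at P21 against P3, and no called difference changed sign. Fewer features enter with 1 probe set per gene and fewer arrays with 2 ages. All 20 arrays leave the P21 minus P3 differences as they were and change their SE, through the shared spread, and the probe sets tested. Otherwise the cause was not tested. The oligodendrocyte sum at P3 overlaps neither that at P8 nor that at P21, and the GAPDH difference does not overlap between P21 and P3. In these comparisons the covariate and age cannot be told apart.

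Leaving out 1 array gave 10 to 11 member calls at P21 against P3 and 4 to 7 at P21 against P8. Over all member differences it kept the side of the threshold in 723 fits, lost a call in 34 and gained one in 8. Quantile normalization and centring on medians kept 11 member calls at P21 against P3. Replicate numbers did not pair the arrays: the deviations of 13 same-numbered pairs correlated at -0.04 to 0.05, and with the replicate block there were 11, 3 and 5 member calls at P21 against P3, P8 against P3 and P21 against P8 (Tuba4a at P8 against P3 had limma adjusted p = 0.0556). Dim probe sets (Tubb3 1369901_at, Map1b 1395357_at) lie near log2 4, where little signal over background limits what can be seen.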
